A study of Mus musculus with 20 samples.

Results

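The step from 5 to 10% resistant potato starch (RPS, fed as raw potato starch) in the Total Western Diet (TWD) was examined in the distal colon (DC) of 10 of the 20 mice in the series. The 5% and 10% RPS diets were each fed to 5 C57BL/6 mice, and the members were the libraries whose description names 1 of these 2 diets. All mice received the TWD, a rodent diet modelled on typical American intake, from weaning for 6 weeks and then the TWD with 0, 2, 5 or 10% w/w RPS for 3 weeks. Each library came from 1 mouse bred in-house and from whole DC tissue, so epithelium, muscle, nerve and immune cells were measured together. Fewer cells of a type cannot be told apart from less RNA per cell. The question was which genes gained further when the starch went from 5 to 10% and which had levelled off at 5% RPS. Values from 0% RPS stand beside the comparison where the shape of the response is described.

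Resistant starch escapes digestion in the small intestine and is fermented by bacteria in the cecum and colon to short-chain fatty acids (SCFAs), chiefly acetate, propionate and butyrate. The colonocytes that line the distal colon take up SCFAs through monocarboxylate transporters and burn butyrate as a main fuel. They also absorb sodium, chloride and water. Sodium enters through the exchanger Slc9a3 or through the aldosterone-controlled epithelial sodium channel, which predominates in the distal colon, and chloride enters in exchange for bicarbonate through Slc26a3.

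For 2 of the 10 mice the diet in the description differed from that in the treatment field of the labels. Mouse RS10_717 was described as 5% and labelled 2%, and mouse RS10_725 was described as 10% and labelled 5%. In the 2% RPS group, mouse RS10_748 was described as 2% and labelled 10%. The descriptions were used, and values under the treatment field and without these 3 mice are given beside the main results. Total counts were 22318531 to 30365108 on 5% RPS and 18429493 to 26595092 on 10% RPS, and the means did not differ beyond the spread (exact permutation test, two-sided, p = 0.111, with 0.00794 the smallest p possible). One library stood apart. Mouse RS10_721 on 5% RPS had a mean log2 CPM (scaled counts) of 8.41 over 12 tested pancreatic enzyme genes, mouse RS10_784 on 10% RPS had 5.50, and the other 8 mice had 0.92 to 1.74. RS10_721 also had the lowest posterior Hox score of the 10, 4.30 against 5.02 to 5.34 in the others, and the lowest smooth muscle score, 8.07 against 8.56 to 8.91. Posterior Hox genes mark the hind end of the gut, and they were measured in all 10 mice. Results that rest on RS10_721 are given with and without it.

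No gene passed the threshold between 10% and 5% RPS. Among 17893 genes tested with edgeR's quasi-likelihood test, 0 (0%) reached a Benjamini-Hochberg adjusted p of 0.05 in either direction, with or without a 1.5-fold change, and the smallest adjusted p was 0.423. At an unadjusted p under 0.05, 526 genes (2.94%) were higher and 515 (2.88%) lower on 10% RPS, 5.82% of genes in both directions together. At any p, 47.6% of all genes tested were higher in mean on 10% RPS, the share that belongs beside the list counts below. The genes of a list were measured in the same 10 libraries, so a count of members is not a count of independent observations. DESeq2 called 1 gene, Itgam, and put 5 below an adjusted p of 0.05 when fold was not considered. These were Itgam, Slc26a3, Oga, Adam15 and Ubtf, of which the last 3 were named here after their values were seen. In 79 genes (0.442%) all 5 mice on 10% RPS lay above all 5 on 5% RPS, and in 107 genes (0.598%) all lay below, 1.04% in all. The 95% interval of the fold change lay within 1.5-fold either way for 12223 genes (68.3%), and for 92.7% of genes of 10 CPM or more. The comparison was therefore precise for abundant genes and imprecise for scarce ones, with 2.72% of genes under 1 CPM bounded in this way. Leaving out mouse RS10_727, the shallowest library of the 10, gave 1774 genes at an unadjusted p under 0.05 and still 0 calls. In the other 9 of the 10 leave-one-out fits the count at this p was below 1774, down to 756. Without RS10_721 746 genes were higher and 618 lower at this p, each more than with all mice. Overlap is easier to avoid with fewer mice, and leaving out 1 mouse left 1.41 to 3.93% of genes without it.

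The 2 steps can be set side by side. From 0 to 5% RPS 0 genes were called, with 839 genes (4.69%) higher and 805 (4.5%) lower at an unadjusted p under 0.05, 9.19% in all. From 0 to 10% RPS 7 genes rose past the threshold (0.0391%) and 0 (0%) fell. By adjusted p alone 11 (0.0615%) rose and 1 (0.00559%) fell, and at an unadjusted p under 0.05 1310 (7.32%) were higher and 1408 (7.87%) lower, 15.2% in all. Under the treatment field and without the 3 mice with 2 diet labels this count was 0, and leaving out single mice moved it from 5 (without RS10_784) to 188 (without RS10_727), with 109 without RS10_703 and 59 without RS10_704. These comparisons share mice, so agreement between them is not independent. The difference between the second and the first step, tested gene by gene as a bend at 5% RPS, was called for 0 genes, with 444 (2.48%) positive and 484 (2.7%) negative at an unadjusted p under 0.05, 5.19% in all. All these counts are from edgeR. With DESeq2, the test that the study used, 210 genes were called from 0 to 10% RPS, 31 from 0 to 5% RPS and 5 for a bend.

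The chloride exchanger Slc26a3 and the magnesium channel Trpm6 were among the genes whose mice on 10% RPS all lay above those on 5% RPS, and the SCFA transporters were higher in mean with overlap. Per-mouse values below follow the order RS10_717, RS10_718, RS10_719, RS10_721 and RS10_724 on 5% RPS and RS10_725, RS10_727, RS10_729, RS10_731 and RS10_784 on 10% RPS, in CPM, counts scaled to a common library size. Slc26a3 (chromosome 12, 31440870-31523916, GRCm39), the apical chloride-bicarbonate exchanger that is lost in congenital chloride diarrhoea, stood at 1076, 1263, 1143, 1216 and 1103 CPM on 5% RPS and at 1732, 1544, 1600.1, 1782 and 1506 CPM on 10% RPS. Every mouse on 10% RPS exceeded every mouse on 5%, 2% and 0% RPS. The mean on 0% RPS was 1102 ± 157 CPM (SD, n = 5), and 13.1% of the log2 fold change between 0 and 10% RPS lay between 0 and 5%. The log2 fold change from 5 to 10% RPS was 0.49 ± 0.10 (SE), a fold of 1.41 with a 95% interval of 1.22 to 1.62 (edgeR unadjusted p = 4.7e-05, adjusted p = 0.423). It was 0.21 under the treatment field and 0.45 without the 3 mice with 2 diet labels.

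The promoter of Slc26a3 is shown because the gene was the most abundant one to separate the diets. The 250 bases before its RefSeq start site (chr12:31437969-31438218, plus strand, GRCm38.p6) hold 1 match to GTTAAT, any base and ATTAA, the element bound by the epithelial factor HNF1, in capitals.
Slc26a3: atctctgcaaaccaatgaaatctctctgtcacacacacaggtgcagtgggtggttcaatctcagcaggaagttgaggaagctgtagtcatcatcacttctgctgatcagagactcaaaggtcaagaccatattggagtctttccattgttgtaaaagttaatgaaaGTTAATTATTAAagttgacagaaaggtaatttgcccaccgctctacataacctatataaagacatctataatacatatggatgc
The motif was picked after this window had been read. It was searched on both strands in windows from 250 bases before to 50 after each start, and 8 of the 12837 tested genes with a window (0.0623%) held it. A match describes letters and not binding.

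Trpm6, the apical magnesium channel of the distal colon, had 128, 122, 106, 147 and 111 CPM on 5% RPS and 253, 204, 188, 161 and 169.7 CPM on 10% RPS. The groups did not overlap, and the mean on 0% RPS, 128 CPM, differed from that on 5% RPS by less than its error. Trpm6 was picked for a large rise without overlap, as were Itgam, Ms4a6d and Igkv6-25 below. The lack of overlap and the unadjusted p-values of these genes are therefore a description. The log2 fold change was 0.67 ± 0.16 (edgeR unadjusted p = 4.5e-04, adjusted p = 0.841), 0.58 without the 3 mice with 2 labels and 0.18 under the treatment field. Among 24 genes for iron, zinc, copper and magnesium handling, 3 were higher at an unadjusted p under 0.05 and 0 lower. Over all genes tested 2.94% were higher and 2.88% lower at this p. The list median log2 fold change was 0.010 against -0.0080 over all genes tested. The other 2, Slc31a1 and Atp7a, carry copper. The importer Slc31a1 had 155, 153, 146, 172 and 165 CPM on 5% RPS and 216, 189, 181, 187 and 184 CPM on 10% RPS, without overlap, and its log2 fold change of 0.27 was 0.080 under the treatment field. The exporter Atp7a had means of 4.95 ± 1.399 and 6.99 ± 0.925 CPM (SD, n = 5 each), and the groups overlapped.

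Of 9 genes for SCFA transport and sensing, 3 were higher at an unadjusted p under 0.05 and 0 were lower. The shares over all genes tested were 2.94% and 2.88%, and the list median was 0.14. The median was 0.067 under the treatment field, with 1 gene at that p, and 0.22 without RS10_721. Slc16a1, the proton-coupled monocarboxylate transporter MCT1, had 236, 316, 270.1, 261 and 294 CPM on 5% RPS and 326, 294, 326, 394 and 375 CPM on 10% RPS. The groups overlapped in that the lowest mouse on 10% RPS lay below the highest on 5% RPS, while the other 4 exceeded all on 5% RPS. Its log2 fold change was 0.32 ± 0.083 (edgeR unadjusted p = 9.4e-04, adjusted p = 0.841), after a first step of -0.12 ± 0.083. Slc5a8, the sodium-coupled transporter of butyrate, had means of 265 ± 24.4 CPM on 5% RPS and 327 ± 44.1 CPM on 10% RPS (SD, n = 5 each), with a log2 fold change of 0.30 ± 0.10. Or51e2, a receptor for acetate and propionate, had means of 8.29 ± 1.77 and 11.1 ± 1.86 CPM. The 22 genes of butyrate oxidation and ketogenesis had a median of -0.021, and 18 of them had intervals within 1.5-fold. The 1 gene of the list at an unadjusted p under 0.05 was Cpt1a, which imports long-chain fatty acids into mitochondria, with a log2 fold change of 0.23 ± 0.10.

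Of 30 genes of the surface colonocyte, the differentiated absorptive cell, 5 were higher at an unadjusted p under 0.05 and 1 lower, and the median was 0.12. Without RS10_721 the median was 0.22, with 26 higher and 4 lower, and under the treatment field it was 0.012. Besides Slc26a3, the smallest p-values belonged to Cdhr2, a brush border protocadherin, with 431 ± 49.8 and 501 ± 46.3 CPM, and to Hnf4g, a factor of enterocyte identity, with 19.4 ± 3.77 and 25.999 ± 5.10 CPM (SD, n = 5 each). Oga, the enzyme that removes O-GlcNAc from proteins, was named after its values were seen. It had 121, 135, 138, 132 and 126 CPM on 5% RPS and 149, 150.0, 155, 165 and 163 CPM on 10% RPS, without overlap, and a log2 fold change of 0.26 ± 0.058 (edgeR unadjusted p = 1.6e-04, adjusted p = 0.841).

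**Figure D1:**
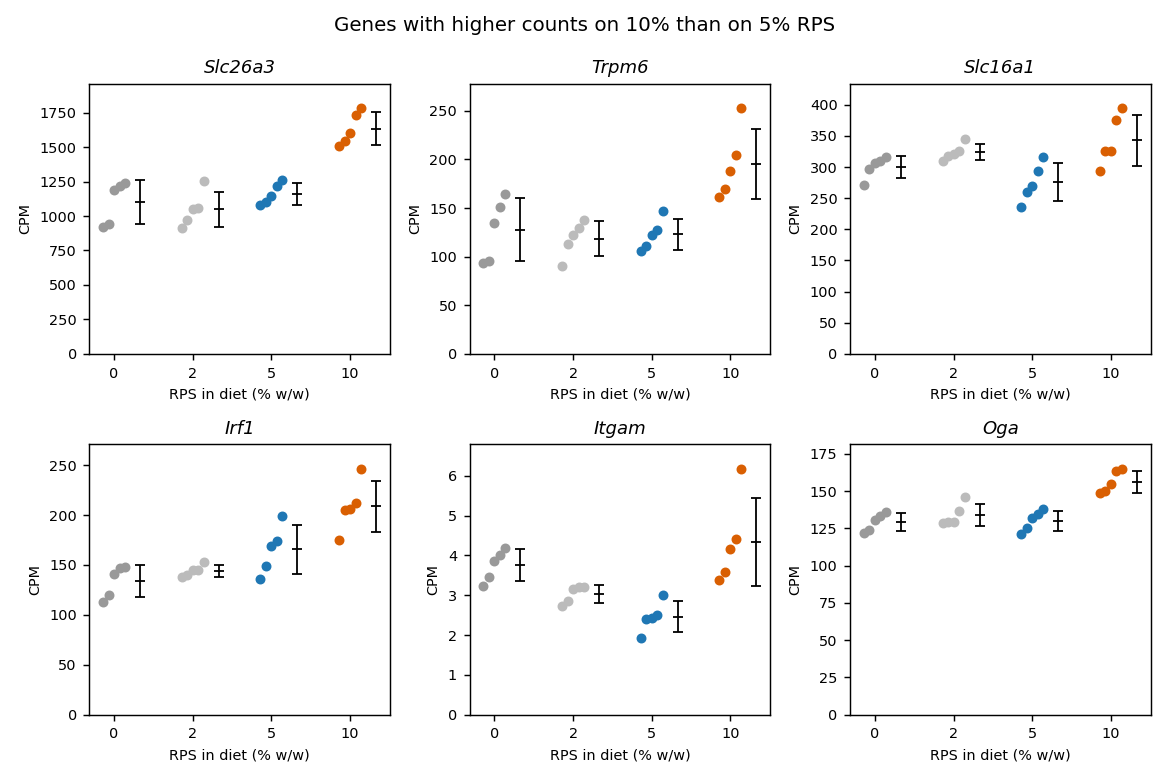
CPM of 6 genes in each mouse (points, ordered by value within a diet) by RPS in the diet, with the mean and SD of the 5 mice as a bar beside them. The mice on 10% RPS lie above all mice on 5% RPS for Slc26a3, Trpm6, Itgam and Oga, and overlap with them for Slc16a1 and Irf1.

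The 7 genes that rose from 0 to 10% RPS were not yet level at 5% RPS in mean. At 5% RPS they had reached between 44.9% (Mgam2-ps) and 82.3% (Rdh9) of the log2 fold change between 0 and 10% RPS. The genes were selected on mice of 10% RPS, which favours a positive second step, and their values are a description. Irf1, a transcription factor induced by interferon, had 174, 136, 199.5, 149 and 169 CPM on 5% RPS and 212, 206, 205, 175 and 246 CPM on 10% RPS. In all, 4 of the 5 mice on 10% RPS exceeded all on 5% RPS. Its log2 fold changes were 0.31 ± 0.10 from 0 to 5% RPS and 0.33 ± 0.10 from 5 to 10% RPS, 2 steps of about the same size. Mgam2-ps, annotated as a pseudogene of a maltase-glucoamylase whose reads may be shared with related genes, had steps of 0.31 ± 0.11 and 0.39 ± 0.11, and Gm12056 had 0.72 ± 0.24 and 0.62 ± 0.24. For the efflux pump Abcg2 the second step was the smaller, 0.48 ± 0.11 and then 0.24 ± 0.11. Car4, the membrane carbonic anhydrase of the surface colonocyte, had 0.46 ± 0.11 and then 0.25 ± 0.11, and the membrane-binding protein Cpne2 had 0.62 ± 0.16 and then 0.28 ± 0.15. The retinol dehydrogenase Rdh9 had the most unequal steps, 1.39 ± 0.27 and then 0.30 ± 0.26 (bend, edgeR unadjusted p = 0.024). The bend p-values of the other 6 were 0.20 to 0.87.

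Ano9, a phospholipid scramblase, and the water channel Aqp8 had means that went up over both steps. Ano9 had 73.6, 67.1, 69.8, 72.3 and 67.2 CPM on 5% RPS and 94.8, 69.4, 80.8, 91.6 and 93.8 CPM on 10% RPS, so that 4 of the 5 mice on 10% RPS exceeded all on 5% RPS. Its steps were 0.24 ± 0.082 and 0.30 ± 0.082. Aqp8 had 597, 584, 561, 496 and 331 CPM and 686, 799.6, 790.0, 483 and 698 CPM, and the groups overlapped. Its steps were 0.25 ± 0.17 and 0.43 ± 0.17.

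Interferon-stimulated genes were higher on 10% than on 5% RPS across most of the list. Of 57 tested members 48 were higher and 9 lower, whereas 47.6% of all genes tested were higher. In this list 11 were higher and 0 lower at an unadjusted p under 0.05, where 2.94% and 2.88% is the background, and the median was 0.19 against -0.0080 over all genes. No member passed the adjusted threshold (smallest adjusted p = 0.841, edgeR). In the first step the median was 0.13. Without RS10_721 the median was 0.24 and without the 3 mice with 2 diet labels 0.12. Under the treatment field it was 0.020, with 29 higher and 28 lower, so the size of the shift depended on which diet label was used. The mean log2 CPM of the list ranged over 3.43 to 3.95 on 5% RPS and over 3.62 to 4.03 on 10% RPS.

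Besides Irf1, the members with the smallest p-values were Iigp1, Cd274 and Rsad2. Iigp1, an interferon-inducible GTPase, had 3.67, 3.18, 5.62, 3.56 and 4.46 CPM on 5% RPS and 14.98, 9.58, 4.44, 5.36 and 5.33 CPM on 10% RPS, with mouse RS10_725 the highest. Its log2 fold change was 0.95 ± 0.32, 0.59 without RS10_725 and -0.17 under the treatment field. Cd274, the checkpoint ligand PD-L1, had 6.34, 6.79, 8.35, 5.86 and 9.82 CPM and 12.1, 7.998, 9.77, 11.9 and 11.5 CPM, with a log2 fold change of 0.52 ± 0.18, or 0.10 under the treatment field. Rsad2, the antiviral protein viperin, had 3.47, 3.01, 4.26, 4.85 and 3.84 CPM and 5.48, 4.19, 6.14, 8.04 and 5.41 CPM, with a log2 fold change of 0.59 ± 0.21. Both overlapped between diets. Of 15 genes for MHC class I presentation 13 were higher, against 47.6% of all genes tested. Of the 13, 2 had an unadjusted p under 0.05, and the list median was 0.13. The direction of this list turned under the treatment field, with 4 higher, 11 lower and a median of -0.081. B2m, the light chain of class I molecules, had 334, 301, 337, 341 and 287 CPM on 5% RPS and 502, 343, 384, 384 and 368 CPM on 10% RPS, without overlap. Its log2 fold change was 0.31 ± 0.13, and 0.0085 under the treatment field. The heavy chain H2-K1, which may share reads with other class I genes, had 668 ± 59.9 and 776 ± 73.9 CPM (SD, n = 5 each).

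Promoters of Irf1 and Rsad2 are shown as examples of the 2 elements through which interferons act. The window of Irf1 (chr11:53769764-53770013, plus strand) holds 1 gamma-activated sequence, TTC, any 3 bases and GAA, and that of Rsad2 (chr12:26456453-26456702, minus strand) holds 1 interferon-stimulated response element, TTTC, any 2 bases and TTTC, both in capitals and from RefSeq on GRCm38.p6.
Irf1: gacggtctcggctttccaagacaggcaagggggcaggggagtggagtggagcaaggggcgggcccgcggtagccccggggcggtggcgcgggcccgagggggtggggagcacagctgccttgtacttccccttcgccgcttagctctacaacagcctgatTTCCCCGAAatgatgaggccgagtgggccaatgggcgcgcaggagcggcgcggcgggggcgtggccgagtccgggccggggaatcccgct
Rsad2: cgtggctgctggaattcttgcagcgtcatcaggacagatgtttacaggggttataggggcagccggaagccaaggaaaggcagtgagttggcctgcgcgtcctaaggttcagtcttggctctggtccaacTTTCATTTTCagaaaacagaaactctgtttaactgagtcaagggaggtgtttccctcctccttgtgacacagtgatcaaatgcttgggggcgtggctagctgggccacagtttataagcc
A window was found for 40 of the 57 genes. On either strand 21 of the 40 (52.5%) held the response element against 3.81% of 12837 tested genes, and 9 of the 40 (22.5%) held the gamma-activated sequence against 8.36%. The motifs can overlap each other, and the shares describe the list and not its change with diet.

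Genes of macrophages and fibroblasts were lower in mean at 5% than at 0% RPS and higher again at 10% RPS. Itgam, the alpha chain of the CD11b integrin of myeloid cells, had 2.41, 2.42, 3.01, 2.52 and 1.92 CPM on 5% RPS and 4.41, 3.59, 3.37, 6.17 and 4.16 CPM on 10% RPS. The groups did not overlap, and the mean on 0% RPS was 3.75 ± 0.399 CPM (SD, n = 5). Its log2 fold change from 5 to 10% RPS was 0.82 ± 0.16 (edgeR unadjusted p = 3.5e-05, adjusted p = 0.423), and DESeq2 called it at an adjusted p of 0.0077. It was 0.52 under the treatment field. Its first step was -0.61 ± 0.16, and the bend had an edgeR unadjusted p of 4.2e-05 (adjusted p = 0.379). Itgam was also among the genes picked for the smallest bend p, as were Ms4a6d and Mrc1 below. That choice favours a low mean at 5% RPS, so the shape of these 3 genes is a description.

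Ms4a6d, a membrane protein of macrophages, had 2.54, 2.32, 1.89, 1.87 and 1.70 CPM and 3.99, 4.19, 3.20, 3.88 and 3.29 CPM, again without overlap, against a mean of 3.47 CPM on 0% RPS. Mrc1, the mannose receptor of resident macrophages, had 14.9, 19.1, 12.2, 11.7 and 15.2 CPM and 18.4, 24.6, 16.3, 19.2 and 20.2 CPM, with overlap, against 23.3 CPM on 0% RPS. Of 19 macrophage genes 17 were higher on 10% RPS, against 47.6% of all genes tested. Among the 19, Mrc1 alone reached an unadjusted p under 0.05, with a list median of 0.18 after a first step of -0.53. Their mean log2 CPM was 2.94 to 3.43 on 5% RPS and 3.28 to 3.68 on 10% RPS, the lowest being RS10_721. Without that mouse the median was 0.079.

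All 22 fibroblast and collagen genes were higher in mean on 10% RPS, whereas 47.6% of all genes tested were higher. In this list 7 were higher at an unadjusted p under 0.05, where 2.94% is the background. The list median was 0.27 after a first step of -0.17. Without RS10_721 21 were higher and 1 lower with a median of 0.20, and under the treatment field 22 were higher with a median of 0.18. Grem1, an antagonist of bone morphogenetic proteins made by cells around the crypt base, had 58.4, 43.99, 47.1, 60.5 and 60.9 CPM on 5% RPS and 75.7, 76.6, 63.7, 102 and 82.2 CPM on 10% RPS, without overlap, and a log2 fold change of 0.56 ± 0.14. The fibrillar collagen Col3a1 had 537 ± 91.8 and 707.2 ± 85.2 CPM, and Col5a1 had 90.3 ± 12.8 and 113 ± 13.4 CPM (SD, n = 5 each). Timp1, an inhibitor of metalloproteinases, had 2.91, 1.79, 1.15, 1.51 and 1.52 CPM and 2.32, 1.80, 1.88, 5.78 and 2.20 CPM, with a log2 fold change of 0.66 ± 0.28 and of 0.21 without RS10_731. Fndc1, a fibronectin-domain protein, and the zinc-finger gene Zfp874a were picked for the smallest p of a positive bend. That choice favours a low mean at 5% RPS, so their values are a description. Their means were 28.1, 20.6 and 26.5 CPM and 13.4, 10.02 and 11.9 CPM on 0, 5 and 10% RPS.

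Immunoglobulin transcripts varied widely between mice. Of 11 constant-region genes 8 were higher and 3 lower, where 47.6% of all genes tested were higher. At an unadjusted p under 0.05 1 was higher, where 2.94% is the background, and the list median was 0.61. Ighg1, the constant region of IgG1, had 11.1, 9.04, 36.02, 7.83 and 7.68 CPM on 5% RPS and 37.6, 24.8, 52.5, 25.9 and 46.8 CPM on 10% RPS. Of the 5% group, mouse RS10_719 alone reached the range of the 10% group, and the log2 fold change was 1.38 ± 0.66, or 2.08 without that mouse. Iglc1, a lambda light chain that may share reads with its near copies, had 33.1, 26.6, 44.4, 13.9 and 31.4 CPM and 250.4, 25.4, 28.6, 45.5 and 69.6 CPM, and its log2 fold change went from 1.49 to 0.51 without RS10_725 and to -0.90 under the treatment field. Of 131 variable segments 16 were higher and 3 lower at an unadjusted p under 0.05, where 2.94% and 2.88% is the background. The median of the segments was 0.51. Igkv6-25 had 1.06, 0.663, 1.12, 0.970 and 1.38 CPM and 2.55, 16.3, 10.2, 3.42 and 3.06 CPM without overlap, whereas Igkv4-57 had 1.39, 3.41, 2.57, 3.16 and 1.43 CPM and 9.01, 1.20, 2.99, 8.42 and 1.76 CPM with overlap. Single segments are similar in sequence, and the handling of shared reads was not stated.

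Of 14 plasma cell genes other than immunoglobulins 12 were higher, against 47.6% of all genes tested. Of the 14, 0 had an unadjusted p under 0.05, and the list median was 0.21. The plasma cell chaperone Mzb1 had means of 0.397 and 0.694 CPM, and Tnfrsf17, the survival receptor BCMA, had 1.403 and 2.12 CPM. The 14 B-cell follicle genes had a median of -0.10 after a first step of 0.53. Of the follicle genes 4 were higher and 10 lower, where the same 47.6% is the background. Without the 3 mice with 2 diet labels the follicle median was 0.0027. Under the treatment field the medians were 0.032 for plasma cells, -0.22 for constant regions and -0.14 for follicle genes, so the constant regions turned direction. Only 1 of the follicle genes had an interval within 1.5-fold, and a level response was therefore not shown gene by gene.

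Genes with a lower mean at 10% RPS included Sult1c2, Cyp2w1, some ion channel genes and most genes of oxidative phosphorylation. Sult1c2, a cytosolic sulfotransferase, had 32.1, 27.5, 30.6, 30.6 and 37.9 CPM on 5% RPS and 17.6, 24.8, 24.2, 17.9 and 22.4 CPM on 10% RPS. The groups did not overlap, and the log2 fold change was -0.57 ± 0.16 (edgeR unadjusted p = 0.0014, adjusted p = 0.841), or -0.12 under the treatment field. Sult1c2, and Ndufaf8 below, were picked for a large fall without overlap, so their lack of overlap and unadjusted p-values are a description. The orphan cytochrome P450 Cyp2w1 had 2.87, 5.07, 5.04, 2.26 and 8.48 CPM and 2.09, 2.39, 2.39, 1.55 and 2.27 CPM, with low and even values on 10% RPS and a log2 fold change of -1.14 ± 0.32. The same list of 36 P450, transferase and efflux genes had 18 higher and 18 lower, where 47.6% of all genes tested were higher. At an unadjusted p under 0.05 4 were higher and 3 lower, where 2.94% and 2.88% is the background. The list median was -0.0075. Cyp2d9, one of a family of similar copies, had 20.7 ± 3.61 and 31.5 ± 8.15 CPM, and Cyp2c55 had 30.2 ± 7.48 and 51.5 ± 24.2 CPM after 70.9 ± 16.3 on 0% RPS (SD, n = 5 each).

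Further genes separated the diets without overlap and were taken by the largest fold change in either direction, so their values are a description. On the lower side were the ganglioside sialyltransferase St6galnac5, with means of 1.48 CPM on 5% RPS and 0.939 CPM on 10% RPS, and Mreg, a regulator of melanosome transport, with 2.14 and 1.36 CPM. Timp4, an inhibitor of metalloproteinases, had 10.2 ± 2.34 and 7.21 ± 0.972 CPM, and the myosin chaperone Unc45b had 4.08 ± 0.471 and 3.04 ± 0.304 CPM (SD, n = 5 each). The transcripts 4933416I08Rik, A830082N09Rik and Smim26 had 2.41, 1.63 and 8.25 CPM on 5% RPS and 1.68, 1.21 and 6.17 CPM on 10% RPS. Most of these transcripts were scarce, and of those named here Timp4 alone was above 10 CPM on 5% RPS. On the higher side, Edn1, which encodes the vasoconstrictor endothelin, had 48.8, 73.8, 61.8, 57.97 and 55.8 CPM on 5% RPS and 79.2, 110.3, 137, 75.4 and 86.1 CPM on 10% RPS, and up to 168 CPM on 0% RPS. Its log2 fold change was 0.71 ± 0.41, so that non-overlap came without an unadjusted p under 0.05. The collagen Col6a5 had 2.28 ± 0.820 and 5.12 ± 2.58 CPM (SD, n = 5 each), and the T-cell costimulator Cd28 had 1.078 and 1.91 CPM. Lilrb4b, an inhibitory receptor with a near copy, had 1.03 and 1.91 CPM. Gm10501 had 0.893 and 1.501 CPM, and the variable segment Ighv7-3 had 2.98 and 6.63 CPM.

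Nuclear genes of oxidative phosphorylation, which build the mitochondrial respiratory chain, were lower in 43 of 45 cases, with a median of -0.093 after a first step of 0.042. The other 2 were higher, where 47.6% of all genes tested were higher. The differences were small, 43 of the 45 intervals lay within 1.5-fold, and 1 gene had an unadjusted p under 0.05. That gene, the succinate dehydrogenase subunit Sdhc, had 196, 194, 201, 216 and 187 CPM on 5% RPS and 175, 186, 195, 161 and 182 CPM on 10% RPS, with overlap. Under the treatment field the list median was 0.013, with 29 genes higher. Ndufaf8, an assembly factor of complex I outside this list, had 14.5, 13.9, 16.7, 15.7 and 13.2 CPM and 8.06, 10.5, 10.7, 11.2 and 11.8 CPM without overlap.

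Among 24 enteric nerve and glia genes 7 were higher and 17 lower, where 47.6% of all genes tested were higher. At an unadjusted p under 0.05 3 were lower, where 2.88% is the background, and the list median was -0.10. Sox10, the glial lineage factor, had 7.30, 7.26, 9.23, 7.04 and 10.98 CPM on 5% RPS and 5.59, 8.16, 4.31, 5.01 and 5.37 CPM on 10% RPS, and S100b, a glial calcium-binding protein, had 4.96, 4.74, 5.45, 4.02 and 5.09 CPM and 4.22, 5.33, 2.43, 2.48 and 2.94 CPM. In both genes RS10_727 was the highest mouse on 10% RPS and lay within the range of 5% RPS.

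Among 21 genes of chloride and potassium secretion 10 were higher and 11 lower, where 47.6% of all genes tested were higher. At an unadjusted p under 0.05 1 was higher, Ano9, and 3 were lower, where 2.94% and 2.88% is the background. The list median was -0.0048. The bicarbonate-permeable channel Best2 had 60.2, 77.8, 67.4, 53.8 and 59.3 CPM on 5% RPS and 45.2, 55.6, 58.02, 43.9 and 40.9 CPM on 10% RPS, following a mean of 81.8 CPM on 0% RPS, and the groups overlapped. Kcne3 and Kcnn4, which encode a regulatory subunit and a channel for basolateral potassium recycling, peaked in mean at 5% RPS. Kcne3 had 159.8, 201 and 154 CPM and Kcnn4 had 54.4, 63.3 and 53.1 CPM on 0, 5 and 10% RPS.

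By the described diets the epithelial sodium channel was lower in mean at each step. Scnn1b, its beta subunit, had 16.8, 19.1, 19.7, 7.30 and 33.9 CPM on 5% RPS and 10.2, 23.8, 12.4, 10.9 and 10.5 CPM on 10% RPS after a mean of 39.2 CPM on 0% RPS. The log2 fold change from 5 to 10% RPS was -0.52 ± 0.34, which did not exceed the spread, and -0.80 without RS10_727, the highest mouse on 10% RPS. Scnn1g, the gamma subunit, had 14.3, 14.4, 27.9, 1.90 and 24.5 CPM and 11.03, 24.05, 9.002, 3.53 and 4.04 CPM, with -0.70 ± 0.57 and -1.26 without RS10_727. Leaving out RS10_721, the lowest mouse on 5% RPS for both, gave -0.72 for Scnn1b and -0.99 for Scnn1g. The differences were smaller under other choices. Scnn1b was -0.21 without RS10_724 and Scnn1g -0.43 without RS10_719, the highest mouse on 5% RPS. Both were close to 0 under the treatment field, at -0.038 and -0.005, and with the mean of the clock genes as a covariate they were -0.070 and -0.17. Of 12 genes of the channel and the aldosterone pathway 3 were higher and 9 lower, where 47.6% of all genes tested were higher. Only 1 was lower at an unadjusted p under 0.05, where 2.88% is the background. That was Hsd11b2, which inactivates glucocorticoids in aldosterone targets, with 368, 382, 366, 332 and 345 CPM on 5% RPS and 226, 317, 384, 272 and 311 CPM on 10% RPS and a log2 fold change of -0.25 ± 0.11, or -0.011 under the treatment field. Cyp11a1, the side-chain cleavage enzyme that starts steroid synthesis, had 0.363, 1.72, 0.879, 0.287 and 2.28 CPM and 0.152, 0.272, 0.725, 0.349 and 0.353 CPM after a mean of 4.79 CPM, with a log2 fold change of -1.55 ± 0.86. At these low levels its interval ran from -3.37 to 0.28, and the estimate was -0.43 under the treatment field.

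For genes whose mean was higher on 5% than on 0% RPS, the data rarely settled whether they had levelled off. Slc9a3, the sodium-proton exchanger, had a mean of 8.23 CPM on 0% RPS, 61.1, 81.6, 47.9, 187 and 8.08 CPM on 5% RPS and 79.8, 22.96, 133, 71.04 and 148 CPM on 10% RPS. Both supplemented diets held mice from near the 0% range upward, and the log2 fold change between them was 0.24 ± 0.71 with an interval of -1.25 to 1.73. Without RS10_721, the highest mouse, it was 0.88, without RS10_724, the lowest on 5% RPS, -0.039, and under the treatment field -0.062. The water channel Aqp4 had 137, 131, 121, 369.7 and 56.4 CPM and 133, 72.4, 242, 114 and 260.2 CPM, with a log2 fold change of 0.013 ± 0.46. It was 0.57 without RS10_721 and -0.20 without RS10_784, so its sign depended on single mice. Zbp1, a sensor of Z-form nucleic acids, had 29.7, 15.9, 67.1, 9.60 and 12.9 CPM and 25.97, 8.43, 31.2, 26.7 and 36.8 CPM, with -0.066 ± 0.47 and 0.61 without RS10_719. The same mouse was highest for Socs3, a feedback inhibitor of cytokine signalling, which had 27.7, 8.91, 79.5, 8.48 and 33.7 CPM and 31.03, 9.90, 15.7, 10.8 and 41.7 CPM, with -0.53 ± 0.52 and 0.16 without it.

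Retnlb and Ang4, antimicrobial products of goblet and other secretory cells, had their highest mean at 5% RPS, and 1 mouse carried it. Retnlb had 0.562, 1.92, 0.676, 23.4 and 0.045 CPM on 5% RPS and 2.05, 0.163, 0.427, 0.155 and 0.314 CPM on 10% RPS, and its log2 fold change was -3.05 ± 1.13, or -0.35 without RS10_721. Ang4 had 2.94, 13.4, 2.06, 98.7 and 0.179 CPM and 15.6, 8.22, 2.56, 3.84 and 0.235 CPM, and its log2 fold change went from -1.94 ± 1.15 to 0.39 without RS10_721. Bhlha15, the factor Mist1 that shapes secretory cells and is also high in pancreatic acinar cells, had 6.77, 3.64, 5.45, 10.1 and 3.71 CPM and 3.23, 2.45, 4.10, 2.29 and 3.10 CPM. RS10_721 was again the highest, and without it the log2 fold change moved from -0.97 ± 0.25 to -0.68 (edgeR unadjusted p = 0.0047). With RS10_721 included, the bend of Bhlha15 had an edgeR unadjusted p of 2.6e-05 (adjusted p = 0.379). Bhlha15 was among the genes picked for the smallest bend p, and its bend without that mouse is not given here. P2ry2, a receptor for extracellular ATP, ranged over 21.4 to 28.3 CPM on 5% RPS and 14.3 to 21.9 CPM on 10% RPS, with slight overlap, against a mean of 17.8 CPM on 0% RPS, and its value did not depend on that mouse (-0.43 ± 0.13, and -0.43 without it). Mocos, which activates molybdenum enzymes, had means of 10.3, 14.4 and 10.7 CPM on 0, 5 and 10% RPS. Retnlb, P2ry2 and Mocos were, like Bhlha15, picked for the smallest bend p. That choice favours a peak at 5% RPS, so the shape of these genes is a description.

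**Figure D2:**
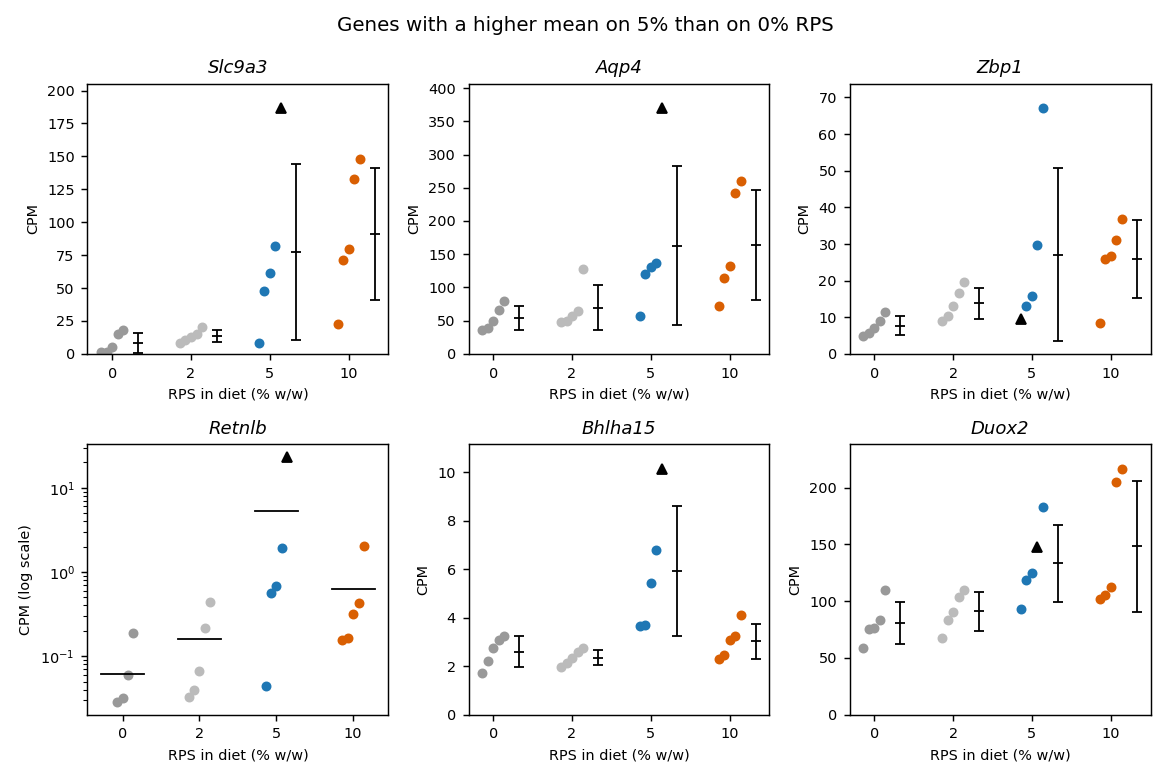
CPM of 6 genes in each mouse by RPS in the diet, with the mean and SD of the 5 mice (for Retnlb, on a log axis, the mean only, and 1 mouse on 0% RPS at 0 is not drawn). The black triangle is mouse RS10_721, which is the highest on 5% RPS for Slc9a3, Aqp4, Retnlb and Bhlha15, with 23.4 CPM of Retnlb.

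Intervals were computed for 25 genes that the study discusses or that earlier results of these data had called. Among them were the 7 genes that rose from 0 to 10% RPS, which favours a positive second step, so the counts are a description. In 18 the estimate for 10% against 5% RPS was positive and in 7 negative, where 47.6% of all genes tested were higher. At an unadjusted p under 0.05 7 were higher and 1 lower, where 2.94% and 2.88% is the background. Only 5 had an interval within 1.5-fold, against 68.3% of all genes. Those were Irf1, Ano9, Car4, Abcg2 and Muc3a. Of these, only Muc3a, a membrane mucin, had an interval that held 0, -0.28 to 0.57, and it was the nearest to a level response, with means of 78.4 ± 18.4, 117 ± 43.2 and 129.7 ± 29.9 CPM on 0, 5 and 10% RPS (SD, n = 5 each). Without RS10_721, at 193 CPM, its log2 fold change was 0.40 (edgeR unadjusted p = 0.023), so that interval too depended on 1 mouse. Duox2, an epithelial oxidase that makes hydrogen peroxide, had 124, 93.5, 183, 147 and 118 CPM and 216, 105, 112, 102 and 205 CPM, and its interval was -0.34 to 0.65. The interferon-stimulated genes Oas3 and Mx1 had means of 3.68 and 6.34 CPM on 5% RPS and 5.02 and 8.03 CPM on 10% RPS. Clca1, a secreted goblet cell protein, had 2215, 2465, 2559.9, 3259 and 1229 CPM on 5% RPS and 2888, 2184, 3052, 4032 and 2457 CPM on 10% RPS, with overlap.

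**Figure D3:**
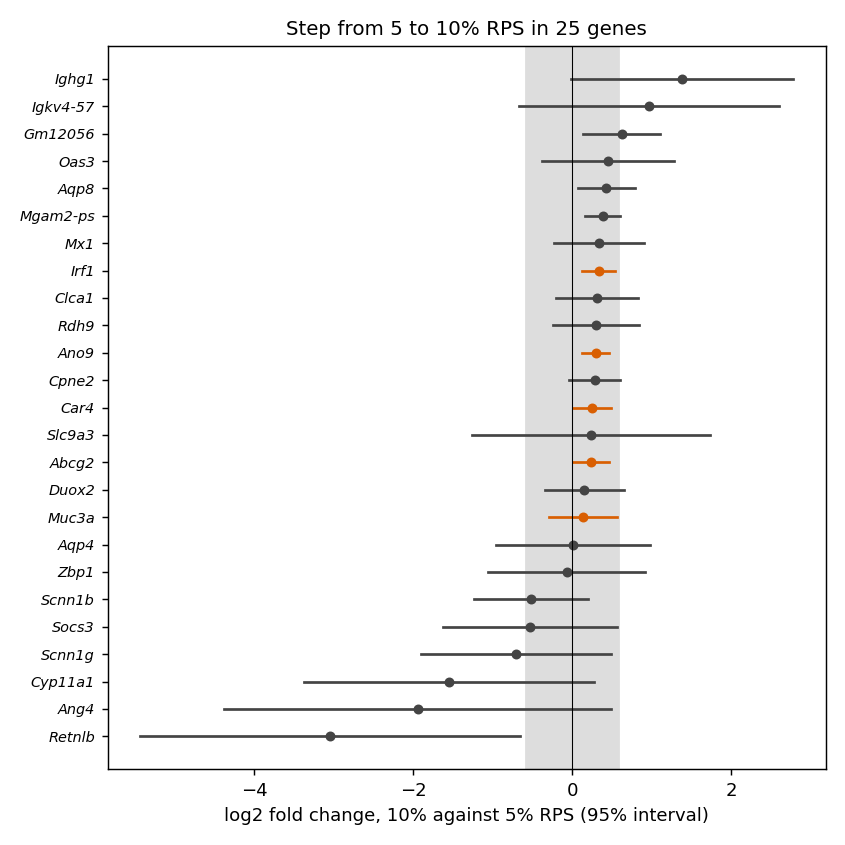
Log2 fold change of 10% against 5% RPS (points) with its 95% interval (lines) for 25 genes, ordered by the estimate. The grey band is 1.5-fold either way, and the 5 orange intervals lie inside it, while that of Slc9a3 runs from -1.25 to 1.73.

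Among whole lists, cholesterol synthesis had the largest first step of those drawn, a median of 0.68 over 25 genes, and a second step of -0.055. In the second step 10 of its genes were higher and 15 lower, where 47.6% of all genes tested were higher. Its mean log2 CPM was 5.94 to 6.74 on 5% RPS and 5.29 to 6.79 on 10% RPS, with the lowest value in RS10_727, and 8 intervals lay within 1.5-fold. Under the treatment field 24 of the genes were higher, with a median of 0.22, and without the 3 mice with 2 labels the median was 0.20, so its direction turned. Goblet cell genes had a median of 0.068, 0.15 without RS10_721 and 0.18 under the treatment field, with Gfi1, a factor of secretory fate, at 7.87 ± 1.61 and 10.3 ± 1.79 CPM (SD, n = 5 each). Epithelial antimicrobial and oxidase genes had a median of 0.013, which was -0.10 under the treatment field and 0.13 without RS10_721, with the colonic oxidase Nox1 at 18.6, 17.7, 11.6, 19.7 and 8.71 CPM on 5% RPS and 26.8, 9.36, 31.1, 29.5 and 36.7 CPM on 10% RPS. Of the 13 electroneutral exchangers 1, Slc26a3, had an unadjusted p under 0.05, as did 5.82% of all genes tested. The list median was 0.13, or 0.035 under the treatment field.

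**Figure D4:**
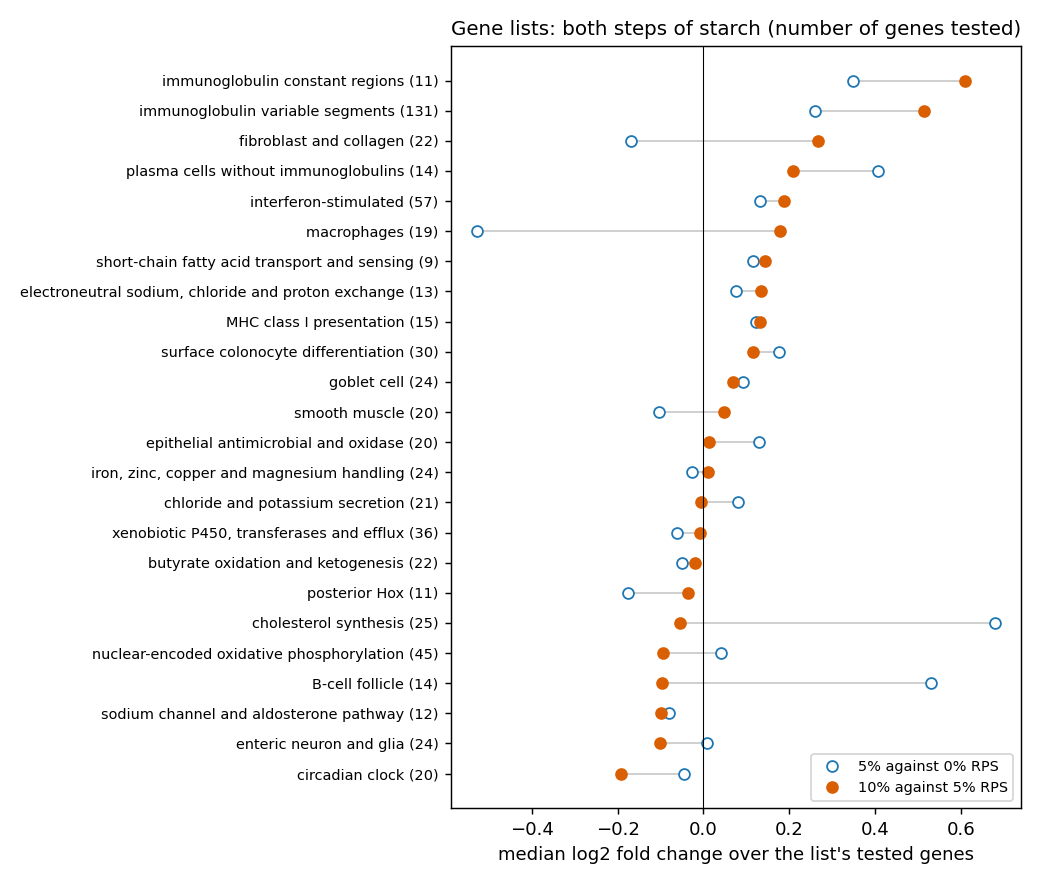
Median log2 fold change over the tested genes of 24 lists for the first step (open circles, 5% against 0% RPS) and the second step (filled, 10% against 5% RPS), with the number of genes in parentheses. Both steps use the same mice on 5% RPS, which by itself pushes them in opposite directions. Macrophages (-0.53, then 0.18) and cholesterol synthesis (0.68, then -0.055) had steps of opposite sign.

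Clock genes, whose transcripts swing with the time of day, were lower in mean on 10% RPS for most members, and the hour of collection was not analysed here. Of 20 clock genes 5 were higher and 15 lower on 10% RPS, where 47.6% of all genes tested were higher. The list median was -0.19, or -0.061 under the treatment field. The mean log2 CPM of the list was 4.95 to 5.36 on 5% RPS and 4.70 to 5.18 on 10% RPS. Per2, a repressor of the clock, had 53.7, 86.2, 81.6, 99.2 and 69.3 CPM and 53.1, 78.2, 41.6, 64.02 and 40.9 CPM, and Clock, one of its activators, had 85.5, 94.2, 82.1, 89.02 and 94.9 CPM and 114, 98.5, 92.2, 103 and 103 CPM. Bmal1, the partner of Clock, had 26.1, 21.2, 19.4, 67.2 and 25.4 CPM and 89.7, 60.9, 38.5, 28.1 and 66.6 CPM, with overlap and a log2 fold change of 0.83 ± 0.41, or 1.31 without RS10_721. The part of collection time in the results was not tested. With the clock score as a covariate the log2 fold change was 0.53 for Slc26a3, 0.53 for Trpm6, 0.82 for Itgam and 0.29 for Irf1. The list medians were then 0.11 for interferon-stimulated genes, 0.20 for fibroblast and collagen genes and -0.071 for oxidative phosphorylation. They were 0.012 for immunoglobulin constant regions and -0.027 for plasma cell genes, against 0.61 and 0.21 without the covariate.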

How the data were processed

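Distal colon RNA from 20 mice on 4 diets was measured by single-end 50-base sequencing of a stranded poly(A) library, 1 library a mouse. The authors removed reads with base quality below Q30 or more than 2 ambiguous nucleotides, mapped to GRCm39 and counted reads per gene in CLC Genomics Workbench. The deposited values are raw counts for 26619 gene IDs, of which 26338 were paired with a symbol here and 281 were not. The annotation release, the strand setting and the handling of reads shared by similar genes are not given in the sources used here. Groups follow the description in the labels.

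Genes were filtered with filterByExpr (minimum count 10) and 17893 were tested with the robust quasi-likelihood test of edgeR 4.0.16 (limma 3.58.1, R 4.3.3) on TMM-scaled counts. All 4 diets shared one fit with no covariate, since no batch is given, and p-values were adjusted over all tested genes by Benjamini-Hochberg. Calls required an adjusted p of at most 0.05 together with a 1.5-fold change. These are the thresholds of the study, which applied them to DESeq2 and not to edgeR. CPM were computed from TMM-scaled library sizes. The 95% intervals come from the fitted log2 fold change and its SE. Contrasts were 10% against 5% RPS, each of these against 0% RPS, and the second step minus the first.

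Named were genes without overlap and of at least 1 CPM with the 10 largest rises and falls, 25 genes that the study discusses or earlier results called, the 5 genes with the smallest p for a bend in each direction, and the leading 2 to 4 genes of each described list. Adam15, Oga, Ubtf, Reg3b, Nrarp and Ppp1r14d were named after their values were seen. One gene that this rule takes is not reported here. The members, lists and tests were chosen with earlier results of these data known. On data simulated for 10% against 5% RPS (17763 genes, 3 simulations of 200 changed genes), the test recovered 56.2% of 1.5-fold, 85.6% of 2-fold and 97.5% of 3-fold changes. Of the genes it found, 4.21% were false. The changed genes were drawn from those with a mean of at least 1 CPM, so the recovered shares do not cover scarcer genes. All these shares describe simulated counts. They may be too high for calls that also require a 1.5-fold change, and for real groups that hold a mouse standing apart.

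Alternatives were DESeq2 1.42.0, limma-voom, RLE scaling, no count filter, only the diets in a contrast, the treatment field as the diet, omission of the 3 mice whose labels disagree, a clock score as covariate, thinning to the smallest library and omission of each mouse in turn. Omission of RS10_721 with RS10_784, and the alternatives for gene lists, were chosen after seeing the data. Promoter windows come from RefSeq on GRCm38.p6, and no coordinate of that build is set against those on GRCm39.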

Additional observations from a re-analysis of the deposited data

Results flagged for a closer look

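Dixon tests for 1 mouse standing apart from the other 4 of its diet passed the 95% level in 23 of 242 cases over scores, library totals and named genes, against about 12.1 by chance. Mouse RS10_721 on 5% RPS accounted for 9 of the 23. It had a pancreatic enzyme score of 8.413 (mean log2 CPM), a smooth muscle score of 8.075 and a posterior Hox score of 4.297. It also had 23.39 CPM of Retnlb, 98.72 CPM of Ang4, 369.7 CPM of Aqp4, 192.8 CPM of Muc3a, 67.17 CPM of Bmal1 and 15.31 CPM of Sst. On 10% RPS, RS10_784 had a pancreatic enzyme score of 5.497 and 0.9021 CPM of Mreg.

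Mouse RS10_725, described as 10% and labelled 5% RPS, stood apart from its group with 502.5 CPM of B2m, 250.4 CPM of Iglc1, 215.7 CPM of Slc31a1 and 2.053 CPM of Retnlb. Among the other mice on 10% RPS, RS10_727 had 23.78 CPM of Scnn1b, RS10_731 had 5.784 CPM of Timp1, and RS10_729 had a score of 4.004 over P450, transferase and efflux genes. On 5% RPS, RS10_719 had 36.02 CPM of Ighg1 and 17.32 CPM of Cyp2c55, RS10_718 had 14.21 CPM of Timp4, RS10_717 had 2.743 CPM of 4933416I08Rik, and RS10_724 had the smallest library, 22.32 megacounts.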

How the results depend on the processing

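With 5 mice a diet, 1.5-fold differences were often missed in simulated data, and genes under 1 CPM were rarely bounded. No paired analysis was possible because the replicate numbers are mouse numbers that no 2 diets share. The count of 0 calls between 10% and 5% RPS held under every alternative except DESeq2, which called 1, and leaving out each mouse gave 0 throughout. Of 1899 pairs of a named gene and an alternative, 1869 kept direction and side of the threshold, 29 changed sign and 1, Itgam by DESeq2, passed it. The causes of the changes below were not tested.

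DESeq2 called 210 genes between 10% and 0% RPS, 31 between 5% and 0% RPS and 5 for a bend (Bhlha15, Cyp2c55, Itgam, Reg3b and Retnlb). RLE scaling gave 13 calls between 10% and 0% RPS, the clock covariate 11, only the diets in the contrast 3 (Abcg2, Mgam2-ps and Rdh9), and the treatment field and the omission of the 3 mice with 2 labels 0 each. Only the diets in the contrast gave 1 call between 5% and 0% RPS (Nrarp). A bend was called for 1 gene without a filter (Reg3b) and for 2 with the clock covariate (Bhlha15 and Retnlb). These fits and the DESeq2 fit included RS10_721, the highest mouse on 5% RPS for Bhlha15 and Retnlb. Between 10% and 5% RPS the treatment field gave 442 genes at an unadjusted p under 0.05 and 0.347% of genes without overlap, and the omission of the 3 mice 657 genes and 2.08%, while 3.63% did not overlap without RS10_721 and RS10_784. Leaving out each mouse in turn gave 756 to 1774 genes at that p, 1.41 to 3.93% without overlap, 5 to 188 calls between 10% and 0% RPS and 0 to 1 between 5% and 0% RPS (Ppp1r14d, without RS10_704).

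Log2 fold changes that turned sign under the treatment field were Slc9a3 -0.062, Mx1 -0.098, Duox2 -0.32, Igkv4-57 -0.030, Aqp4 -0.12, Iigp1 -0.17, Iglc1 -0.90, Mzb1 -0.082, Kcnn4 0.027 and Bmal1 -0.030. With the clock covariate Slc9a3 was -0.11, Duox2 -0.0094 and Aqp4 -0.29. Duox2 was -0.039 without the 3 mice, Zbp1 0.17 by limma-voom, Aqp4 -0.00052 without a filter and Ang4 0.70 without RS10_721 and RS10_784. Leaving out 1 mouse moved Aqp4 between -0.20 and 0.57, Zbp1 between -0.27 and 0.61, Socs3 between -0.90 and 0.16, Ang4 between -2.67 and 0.39, Slc9a3 between -0.039 and 0.88 and Duox2 between -0.015 and 0.30.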

Other observations

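Cytokine, retinoid and junction genes outside the comparisons above showed single differences from 5 to 10% RPS, with list medians within 0.05 of 0 on the log2 scale. Of 29 chemokine and STAT3 signalling genes 2 were higher and 0 lower at an unadjusted p under 0.05. The shares over all genes tested were 2.94% and 2.88%, and the list median log2 fold change was 0.015. Socs2, a feedback inhibitor of growth hormone signalling, had 27.3, 28.2, 27.8, 23.3 and 34.3 CPM on 5% RPS and 38.8, 27.9, 33.5, 43.5 and 42.6 CPM on 10% RPS. Il18, a cytokine that epithelial cells release, had 103, 102, 128, 109 and 97.9 CPM and 135, 128, 130.2, 106 and 146 CPM. Both overlapped between the diets. Of 24 genes of retinoid metabolism 2 were higher and 1 lower at this p, with a median of 0.048, or 0.17 with the clock score as a covariate. The carotenoid-cleaving enzyme Bco1 had 4.11 ± 0.781 and 5.79 ± 1.43 CPM, the retinal reductase Dhrs3 had 38.1 ± 7.47 and 46.7 ± 10.4 CPM, and the retinol dehydrogenase Rdh10 had 38.4 ± 1.996 and 33.7 ± 3.24 CPM (SD, n = 5 each). Among 21 claudin and tight junction genes the median was 0.035, and Cldn8, a sealing claudin of the distal colon, had 99.4, 74.97, 93.3, 101 and 107 CPM on 5% RPS and 188, 152, 96.98, 72.4 and 144 CPM on 10% RPS, with overlap.

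Of 40 cell cycle genes 31 were higher in mean and 9 lower, where 47.6% of all genes tested were higher. Of the 40, 0 had an unadjusted p under 0.05, and the list median was 0.093. The median was 0.032 without RS10_721, 0.19 under the treatment field and 0.23 without the 3 mice with 2 diet labels, and with the clock score as a covariate the direction turned, with 17 higher, 23 lower and a median of -0.029. The 19 stem cell and Wnt target genes had a median of -0.012, with 15 intervals within 1.5-fold, and the 17 tuft cell genes had a median of -0.011, with 12 such intervals. Without RS10_721 these medians were 0.065 and 0.10. Among 21 enteroendocrine genes 1 was lower at this p, the hormone gene Sst, with 8.82, 8.94, 7.07, 15.3 and 8.66 CPM on 5% RPS and 6.77, 8.65, 6.02, 7.53 and 6.16 CPM on 10% RPS. The highest value was again that of RS10_721, and without it the log2 fold change of Sst moved from -0.48 ± 0.18 to -0.25. All 6 red blood cell genes were higher in mean on 10% RPS (median 0.60), and 9 of 11 adipocyte genes were lower (median -0.32), with 0 at an unadjusted p under 0.05 in either list. Over all genes tested 47.6% were higher. The direction of both lists turned under an alternative. With the clock score as a covariate 2 red blood cell genes were higher and 4 lower (median -0.050), and without RS10_721 8 adipocyte genes were higher and 3 lower (median 0.27). Their part in the other results was not tested.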
